A study of Mus musculus with 4 samples.

Results

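Expression of 10 genes of the pluripotency program of mouse embryonic stem cells was followed in differentiating cell aggregates with and without doxycycline (Dox). The genes were Pou5f1, Nanog, Utf1, Zfp42, Esrrb, Klf2, Klf4, Tfcp2l1, Lin28a and Tdgf1. They were chosen for their known role by a rule that uses no measured value, although earlier results of these data were known. All 10 were found among 21814 genes counted. The 4 RNA libraries came from iMN-ESCs, a mouse embryonic stem cell line on a C57BL/6 background in which Dox induces an Isl1-Lhx3 fusion. Aggregates spent 2 days in LIF-containing stem cell growth medium. All-trans retinoic acid (0.5 µM) alone followed for 2 days. In the last 2 to 3 days retinoic acid was given with Dox at 2 µg/mL (2 libraries) or without Dox (2 libraries). All 4 libraries therefore carry the inducible transgene and saw retinoic acid, and they differ by Dox. Cells without the transgene given Dox were not analysed here, so the fusion and Dox itself cannot be told apart. The labels do not say whether the line is 1 clone.

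Naive pluripotent cells are held in their state by a network in which Pou5f1 and its partner Sox2 bind joint sites at many stem cell genes, together with Nanog, Esrrb, Tfcp2l1 and Klf proteins, downstream of LIF and Stat3. Retinoic acid and loss of LIF drive cells out of this state, and most of the network is then shut off. Some of its genes are also used elsewhere. Lin28a persists in neural progenitors, Klf2 and Klf4 are active in endothelial and epithelial cells, and Pou5f1 and Nanog are kept in primordial germ cells.

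Part counts summed to 37311037 and 53903936 with Dox and to 28239859 and 24020832 without Dox. Counts of the Lhx3 and Isl1 gene units followed the labels, although transcripts of the fusion and of the cells' own genes cannot be told apart in them. Lhx3 stood at 125 and 108 counts per 1000000 (CPM) with Dox and at 0.404 and 0.286 CPM without Dox, and Isl1 at 104 and 82.4 CPM with Dox and at 3.08 and 5.84 CPM without Dox. Of 14278 genes tested by edgeR's quasi-likelihood test, 1.23% were called higher with Dox and 0.056% were called lower, at an adjusted p (Benjamini-Hochberg) under 0.05. Libraries of the same replicate number shared a further feature. The median share of a gene's counts that fell in its last exon was 31.4% and 36.3% with Dox and 30.6% and 38.7% without Dox, so both replicate 2 libraries were weighted more to the 3′ end.

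Promoters of 2 members hold the octamer letters that POU factors such as Pou5f1 recognise, and these windows are shown because 1 belongs to a scarce member and the other to a member counted at a few CPM. The letters TTTGCAT, or ATGCAAA on the other strand, were found in the 250 bases before an annotated start for 2 of the 10 members, Nanog and Zfp42. They were in 3 of the 13 member promoters and in 4.12% of 32851 mouse promoters. The full octamer ATTTGCAT was found for Zfp42, and in 1.6% of promoters. The letters AAGGTCA, recognised by orphan receptors such as Esrrb, was found in none of the 13 member promoters and in 4.08% of all. Sequences are from RefSeq, build GRCm38.p6, with the searched letters in capitals. The Nanog window lies at chr6:122707384-122707450 on the plus strand and the Zfp42 window at chr8:43307158-43307224 on the minus strand.
Nanog: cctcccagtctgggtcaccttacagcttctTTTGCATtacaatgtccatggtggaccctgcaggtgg
Zfp42: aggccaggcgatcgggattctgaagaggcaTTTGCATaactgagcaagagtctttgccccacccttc

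**Figure D1:**
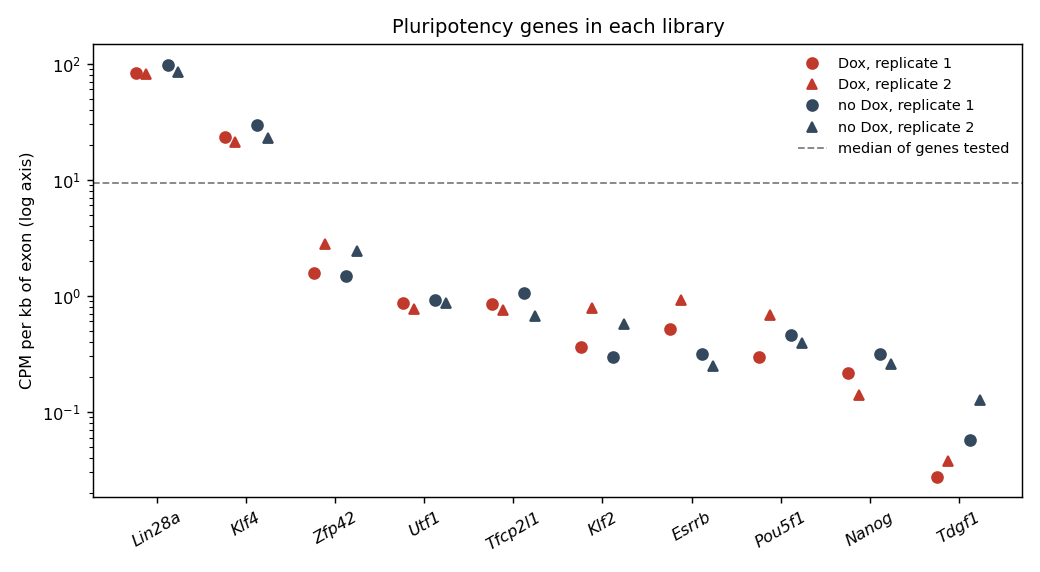
Level of each member in each library, in CPM per kb of exon on a log axis, with Dox in red left of no Dox in dark blue, replicate 1 as circles and replicate 2 as triangles. Lin28a and Klf4 lie above the median of the genes tested (9.31 CPM per kb, dashed line), and the other 8 members below it.

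The members fell into separate ranges of level. Per kb of exon, and averaged over all 4 libraries, Lin28a had 86.7 CPM per kb and Klf4 24.3 CPM per kb. These placed them above 95.8% and 75.3% of 14071 tested genes with a known exon length. Zfp42 followed with 2.07 CPM per kb, Utf1 with 0.860, Tfcp2l1 with 0.829, Klf2 with 0.504, Esrrb with 0.500 and Pou5f1 with 0.457 CPM per kb. Nanog had 0.233 CPM per kb, and Tdgf1 0.0623 CPM per kb. Pou5f1 and Nanog stood above 10.04% and 5.22% of tested genes. The labels name the cells by their stem cell line, iMN-ESCs, and all 4 libraries were taken after the retinoic acid steps. From Utf1 down to Nanog the ranges over libraries of each pair of neighbours overlapped, so no such pair is set apart by its range. Pou5f1 was nevertheless above Nanog in all 4 libraries, and the range of Utf1 lay wholly above those of Pou5f1 and Nanog. Lin28a, Klf4 and Zfp42 each lay above the next member in all 4 libraries. A library of undifferentiated cells was not analysed here, so no level is converted into a share of stem cells. In bulk RNA, fewer cells of a type and less RNA per cell cannot be told apart.

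The core factors Pou5f1 and Nanog were scarce in both groups. Pou5f1 (Oct4), the POU-homeodomain factor without which the pluripotent state is lost, had 15 and 51 counts with Dox against 17 and 13 counts without Dox, or 0.401 and 0.933 CPM with Dox against 0.624 and 0.530 CPM without Dox. Dox replicate 2 was the highest of the 4 libraries and Dox replicate 1 the lowest, so the groups overlapped. The log2 fold change was 0.24 (SE 0.52, 95% interval -1.02 to 1.502, adjusted p = 0.959). Its sign turned to -0.50 without Dox replicate 2. Its exons overlap by up to 170 bases with a gene on the other strand, Gm19553, and RefSeq lists Pou5f1-related pseudogenes, so these few counts need not all be Pou5f1.

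Nanog, a homeodomain factor that stabilises self-renewal, had 18 and 17 counts with Dox against 19 and 14 counts without Dox. In CPM, the values were 0.481 and 0.311 with Dox and 0.697 and 0.571 without Dox. Both libraries with Dox lay below both others. The difference missed the threshold (log2 fold change -0.70, SE 0.44, 95% interval -1.77 to 0.36, adjusted p = 0.705). The counts were scattered over all 8 parts of the gene, with at most 8 counts in any part of any library. Nanog also has processed pseudogenes, and the unit counted under its name includes a second transcript identifier that could not be matched, so its value per kb is approximate.

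Utf1, a chromatin-bound factor of stem cells and early embryos, was scarce and nearly even across the 4 libraries. It had 1.07 and 0.952 CPM with Dox and 1.14 and 1.06 CPM without Dox, from 26 to 52 counts in a library. The log2 fold change of -0.13 (SE 0.32, 95% interval -0.91 to 0.66, adjusted p = 0.97) was smaller than its own error. Both of its exons were counted in all 4 libraries, with 58.1% to 67.5% of counts in the last one, which makes up 47.8% of its exon length.

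Zfp42 (Rex1), a zinc finger protein widely used as a marker of naive cells, was counted at a few CPM. It stood at 2.81 and 4.96 CPM with Dox and at 2.61 and 4.28 CPM without Dox. Both replicate 2 libraries were above both replicate 1 libraries, by 1.77 times with Dox and by 1.64 times without Dox. The groups overlapped, and the log2 fold change was 0.19 (SE 0.38, 95% interval -0.75 to 1.12, adjusted p = 0.958). Leaving out Dox replicate 2 gave -0.27, and leaving out no Dox replicate 1 gave -0.12. The last exon, 83.0% of the exon length, held 90.5% and 90.0% of its counts with Dox and 91.5% and 95.2% without Dox. The earlier exons together had 10 and 27 counts with Dox and 6 and 5 without Dox. The annotation also lists a processed pseudogene of Zfp42.

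Klf2, a zinc finger factor of naive cells and of endothelium under flow, followed the same order of libraries. It had 0.669 and 1.45 CPM with Dox and 0.550 and 1.06 CPM without Dox. Replicate 2 was 2.16 times replicate 1 with Dox and 1.93 times replicate 1 without Dox. The log2 fold change was 0.43 (SE 0.53, adjusted p = 0.895), and -0.24 without Dox replicate 2. In both Zfp42 and Klf2 the libraries that stood higher were those weighted to the 3′ end, and the part of that feature in these values was not tested. Outside the last exon Klf2 had 0.268 and 0.659 CPM with Dox and 0.184 and 0.449 CPM without Dox, so replicate 2 was higher in both groups. Zfp42 had 0.268 and 0.494 CPM there with Dox and 0.220 and 0.204 CPM without Dox, so replicate 2 was higher with Dox but not without Dox.

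Esrrb, an orphan nuclear receptor that can stand in for Nanog in self-renewal, showed the largest fitted difference among the 9 members tested. It had 90 and 231 counts with Dox against 40 and 28 counts without Dox, or 2.41 and 4.23 CPM with Dox against 1.47 and 1.14 CPM without Dox. Both libraries with Dox lay above both libraries without Dox, and the higher of them was 1.76 times the other. The log2 fold change was 1.35 (SE 0.37, 95% interval 0.43 to 2.27), a 2.55-fold higher mean with Dox, with an unadjusted p = 0.0114 and an adjusted p = 0.241. It did not pass the threshold over all genes. It passed without Dox replicate 1 (1.69, adjusted p = 0.0241, with 1.95% of genes called higher in that test), while without Dox replicate 2 the value was 0.90 (adjusted p = 0.9997). At 0.500 CPM per kb on average it was above 10.8% of tested genes.

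Most Esrrb counts lay in the part that holds the last exon, which took 62 and 172 counts with Dox and 26 and 18 without Dox. The other 7 parts together had 28 and 59 counts with Dox and 14 and 10 without Dox, or 0.749 and 1.08 CPM with Dox against 0.514 and 0.408 CPM without Dox. Both sets of parts were therefore higher in both libraries with Dox. With the last exon left out of every gene, the log2 fold change of Esrrb was 0.99 (adjusted p = 0.771).

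Tfcp2l1, a transcription factor that acts downstream of LIF and Stat3, stood at 7.89 and 6.97 CPM with Dox and at 9.72 and 6.16 CPM without Dox. The libraries without Dox lay on either side of those with Dox (log2 fold change -0.10, SE 0.26, 95% interval -0.74 to 0.54, adjusted p = 0.972). It is the longest member, with 9.269 kb of exon, of which the last exon makes up 83.9%, so its level per kb was close to that of Utf1. Counts in the last exon came to 6.63 and 6.50 CPM with Dox and 7.56 and 5.10 CPM without Dox. The earlier exons had 47 and 26 counts with Dox and 59 and 26 without Dox, or 1.26 and 0.476 CPM with Dox against 2.17 and 1.06 CPM without Dox. In these exons both replicate 2 libraries were lower than the replicate 1 library of their group. Without the last exon the log2 fold change was -0.95 (adjusted p = 0.943), and with the largest part as the gene's count it was 0.05, so its sign depended on which exons were read. A small RNA gene, Gm23497, overlaps its exons by 130 bases on the same strand.

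Klf4, a zinc finger factor that supports naive cells and also acts in epithelium, endothelium and stressed cells, was far more abundant. It stood at 70.1 and 64.2 CPM with Dox and at 90.1 and 69.4 CPM without Dox. No Dox replicate 1 was the highest library and no Dox replicate 2 lay between the libraries with Dox. The log2 fold change was -0.25 (SE 0.15, 95% interval -0.63 to 0.13, adjusted p = 0.703). With 1 library left out in turn it ran from -0.43 to -0.04.

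Tdgf1 (Cripto), the membrane-anchored coreceptor through which cells respond to Nodal, was barely counted. It had 2 and 4 counts with Dox against 3 and 6 counts without Dox. A count of 3 corresponds to 0.0802 and 0.0549 CPM with Dox and 0.11 and 0.122 CPM without Dox. The ratio of summed counts with Dox over without Dox was 0.375 (exact 95% counting interval 0.11 to 1.18). Tdgf1 was the one member that did not pass the filter on low counts. The last exon took 1 and 4 of its counts with Dox and 2 and 6 without Dox, and the exons between the first and the last took none. Processed pseudogenes of Tdgf1 are annotated. A Tdgf1 transcript was therefore not clearly detectable at this depth in either group.

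Lin28a, the RNA-binding protein that blocks maturation of the let-7 microRNAs, was the most abundant member. It had 10895 and 15505 counts with Dox and 9370 and 7279 counts without Dox, or 291 and 284 CPM with Dox against 344 and 297 CPM without Dox. Both libraries with Dox lay below both libraries without Dox, by a small margin. The log2 fold change was -0.16 (SE 0.13, 95% interval -0.47 to 0.16, adjusted p = 0.814), a level with Dox of 0.898 times that without Dox. Over the libraries left out in turn it ran from -0.26 to -0.04. Outside the last exon Lin28a had 43.3 and 28.7 CPM with Dox against 50.7 and 24.4 CPM without Dox. The groups overlapped there. With the last exon left out of every gene, its log2 fold change was -0.06 (SE 0.32). A gene on the other strand, Gm13061, overlaps the exons of Lin28a by 103 bases.

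Lin28a and let-7 restrain each other, and the letters of that link are shown because most Lin28a counts fell on the exon that carries them. Of the last exon of 2992 bases, 92.8% is 3′ untranslated sequence. It holds 2 matches to the let-7 seed, CTACCTC, each followed by an A, at chr4:134005189-134005210 and chr4:134004551-134004572 on the minus strand (GENCODE M21, GRCm38). All 8 mature let-7 5p sequences of the RefSeq table share 1 seed, bases 2 to 8, in capitals here as are the matching letters of the sites. A match is a description of the letters and does not show that the site is used.
let-7a-5p: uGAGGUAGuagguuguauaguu
let-7d-5p: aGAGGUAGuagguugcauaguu
let-7g-5p: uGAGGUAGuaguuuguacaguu
Lin28a site nearer the stop codon: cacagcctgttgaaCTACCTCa
Lin28a site farther from the stop codon: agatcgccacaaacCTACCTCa

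The last exon of Lin28a took 85.1% and 89.9% of its counts with Dox and 85.3% and 91.8% without Dox, close to its 85.4% of the exon length. Level per kb was lowest in exon 1 in all 4 libraries. There it was 39.0 and 21.9 CPM per kb with Dox and 45.1 and 18.1 CPM per kb without Dox, and in exon 3 it was 126 and 88.4 CPM per kb with Dox and 149 and 78.1 CPM per kb without Dox. The replicate 1 libraries exceeded the replicate 2 libraries in exons 1 to 3 and differed less in the last exon. In Klf4 the last exon had the lowest level per kb or close to it, and exon 2 reached 47.8 and 40.2 CPM per kb with Dox and 67.9 and 40.5 CPM per kb without Dox. The last exon's share of counts was higher in replicate 2 than in replicate 1 of both groups for Lin28a and for Klf4.

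**Figure D2:**
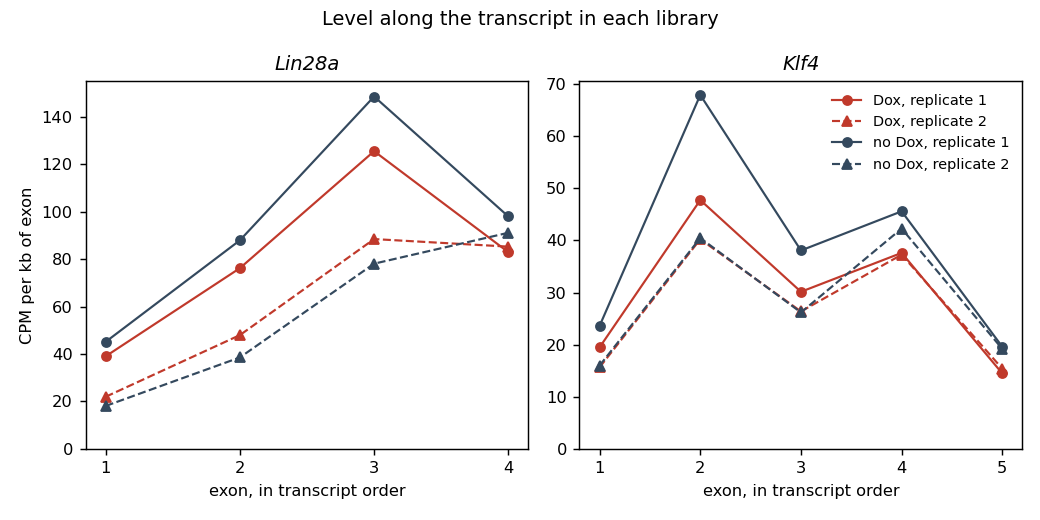
Level of Lin28a and Klf4 by exon in transcript order, in CPM per kb of exon, with Dox in red and no Dox in dark blue, replicate 1 as solid and replicate 2 as dashed lines. In exons 1 to 3 of Lin28a the solid lines lie above the dashed lines of both groups.

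Of the 10 members, 9 passed the filter on low counts and were tested. None was called higher (background 1.23%) and none lower (background 0.056%) by edgeR's quasi-likelihood test, and none by DESeq2 (background 2.61% higher and 0.74% lower). At an unadjusted p under 0.05 edgeR found 1 member higher, Esrrb, and none lower, against 6.25% and 4.01% of all genes tested. Among the tested members 3 had groups that did not overlap, Esrrb, Nanog and Lin28a, against 38.8% of all genes tested. Log2 fold changes ran from -0.70 to 1.35 with a median of -0.10, against a median of -0.01 over all genes tested, with 4 above 0 and 5 below 0. The 95% intervals of Lin28a, Klf4, Tfcp2l1 and Utf1 lay within a 2-fold difference in either direction, whereas those of Pou5f1, Nanog, Klf2, Zfp42 and Esrrb reached past it. A p that misses the threshold does not show that a member was equal in the groups.

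**Figure D3:**
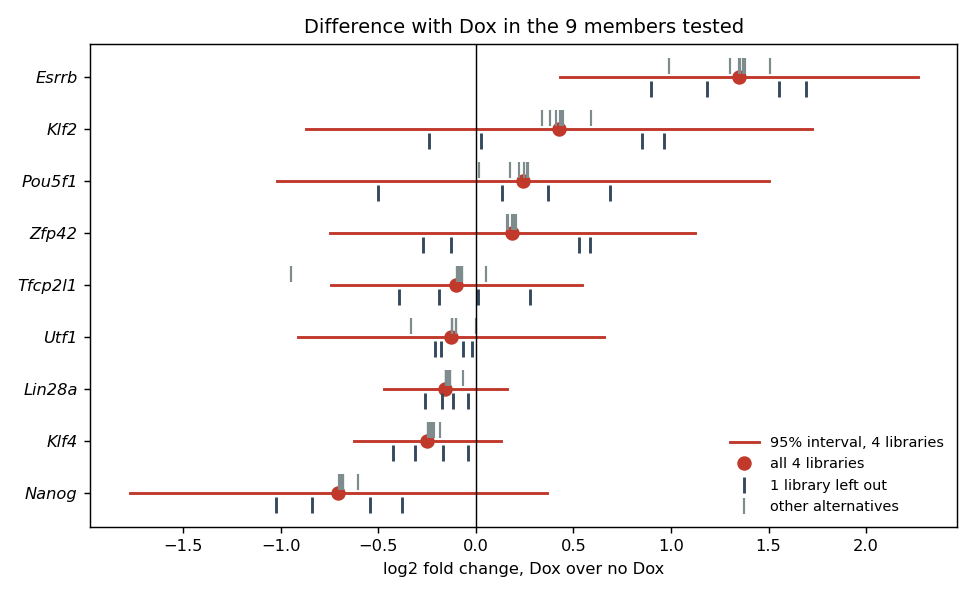
Log2 fold change with Dox over no Dox of the 9 members tested, with the value from all 4 libraries as a dot, its 95% interval as a line, values with 1 library left out as dark ticks below and values under the other alternatives as grey ticks above. The Esrrb interval, 0.43 to 2.27, is the one that lies wholly above 0.

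Further genes of the pluripotency network were also unevenly abundant. Of 27 such genes beyond the members, 19 were tested. None was called by edgeR or by DESeq2 in either direction, and at an unadjusted p under 0.05 edgeR found 0 higher and 2 lower. Their median log2 fold change was -0.12. For this and the later lists, the shares over all genes tested by edgeR were 1.23% called higher and 0.056% called lower. At an unadjusted p under 0.05 they were 6.25% and 4.01%, and by DESeq2 2.61% and 0.74%. The most abundant of the 19 tested were Rif1, Sall4 and Mycn. Rif1, a telomere and replication timing factor, had 234 and 178 CPM with Dox and 292 and 217 CPM without Dox. Sall4, a zinc finger factor of stem cells and early lineages, had 149 and 147 CPM with Dox and 167 and 143 CPM without Dox. Mycn, a growth-promoting factor also of neural progenitors, had 97.0 and 80.1 CPM with Dox against 134 and 127 CPM without Dox, and its log2 fold change of -0.56 missed the threshold (SE 0.13, adjusted p = 0.169). The other gene lower at an unadjusted p was Sox2, the partner of Pou5f1, which neural progenitors also express. It stood at 92.4 and 62.6 CPM with Dox and 129 and 112 CPM without Dox (log2 fold change -0.64, SE 0.20, adjusted p = 0.314), and is named here after its value was seen. The 8 genes under the filter were Dppa2, Dppa3, Fgf4, Gdf3, Lefty2, Prdm14, Tcl1 and Eras. Dppa3 had 0 counts in all 4 libraries, which allows up to 0.0802 and 0.0549 CPM with Dox and 0.11 and 0.122 CPM without Dox.

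Genes of the formative and primed states, which follow naive pluripotency, were not called either. Of 12 genes 11 were tested, with 0 higher and 0 lower by edgeR and by DESeq2, 0 and 2 at an unadjusted p under 0.05, and a median of -0.04. Otx2, a factor of these states, fell under the filter on low counts. The most abundant of the 11 tested were Tead2, Dnmt3a and Sox4. Tead2, a partner of Yap in Hippo signalling, had 234 and 224 CPM with Dox and 212 and 227 CPM without Dox. Dnmt3a, which methylates DNA anew, had 167 and 157 CPM with Dox and 161 and 116 CPM without Dox. Sox4 had 160 and 111 CPM with Dox and 112 and 62.8 CPM without Dox. Its log2 fold change of 0.63 missed the threshold (SE 0.30, adjusted p = 0.582 by edgeR).

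The pathways that feed the members were read next. For LIF and Stat3, all 11 genes were tested, with 0 called by edgeR, 1 higher and 0 lower by DESeq2, 3 higher and 0 lower at an unadjusted p under 0.05, and a median of 0.24. Lifr, the LIF receptor, had 355 and 498 CPM with Dox and 304 and 426 CPM without Dox, and its coreceptor Il6st had 198 and 189 CPM with Dox against 190 and 156 CPM without Dox. Gab1, a docking protein of this and other receptors, had 221 and 226 CPM with Dox and 184 and 159 CPM without Dox (log2 fold change 0.39, SE 0.12, adjusted p = 0.325). Per kb of exon, averaged over the libraries, Lifr had 97.4 and Il6st 21.2 CPM per kb, far above the 0.829 of Tfcp2l1 and the 0.500 of Esrrb.

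Around Lin28a, 13 genes of the let-7 axis were tested. None was called by edgeR, 1 was higher and 1 lower by DESeq2, and 1 was higher and 2 lower at an unadjusted p under 0.05, with a median of -0.12. Igf2bp1, Igf2bp2 and Igf2bp3, RNA-binding proteins of fetal cells whose messages let-7 represses, averaged 63.5, 95.1 and 64.5 CPM per kb, of the same order as the 86.7 of Lin28a. Igf2bp1 had 529 and 489 CPM with Dox and 606 and 504 CPM without Dox. Igf2bp2 had 396 and 342 CPM with Dox against 396 and 351 CPM without Dox, and Igf2bp3 had 305 and 246 CPM with Dox against 312 and 258 CPM without Dox.

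For Nodal signalling, of which Tdgf1 is a part, 11 of 16 genes were tested, with 0 called by edgeR or DESeq2, 1 higher and 0 lower at an unadjusted p under 0.05, and a median of 0.02. Gdf3, Cfc1, Acvr1c, Lefty2 and Cer1 fell under the filter on low counts, and Cer1 had 0 counts in every library. The receptor Acvr2a had 98.3 and 89.6 CPM with Dox and 112 and 94.9 CPM without Dox. Smad4, the shared signal carrier of the family, had 183 and 157 CPM with Dox and 206 and 157 CPM without Dox. Among the 13 relatives of Klf2 and Klf4, all tested, edgeR called 0, DESeq2 0 higher and 1 lower, and 0 were higher and 1 lower at an unadjusted p under 0.05, with a median of 0.09. Klf6 had 107 and 130 CPM with Dox against 129 and 109 CPM without Dox.

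**Figure D4:**
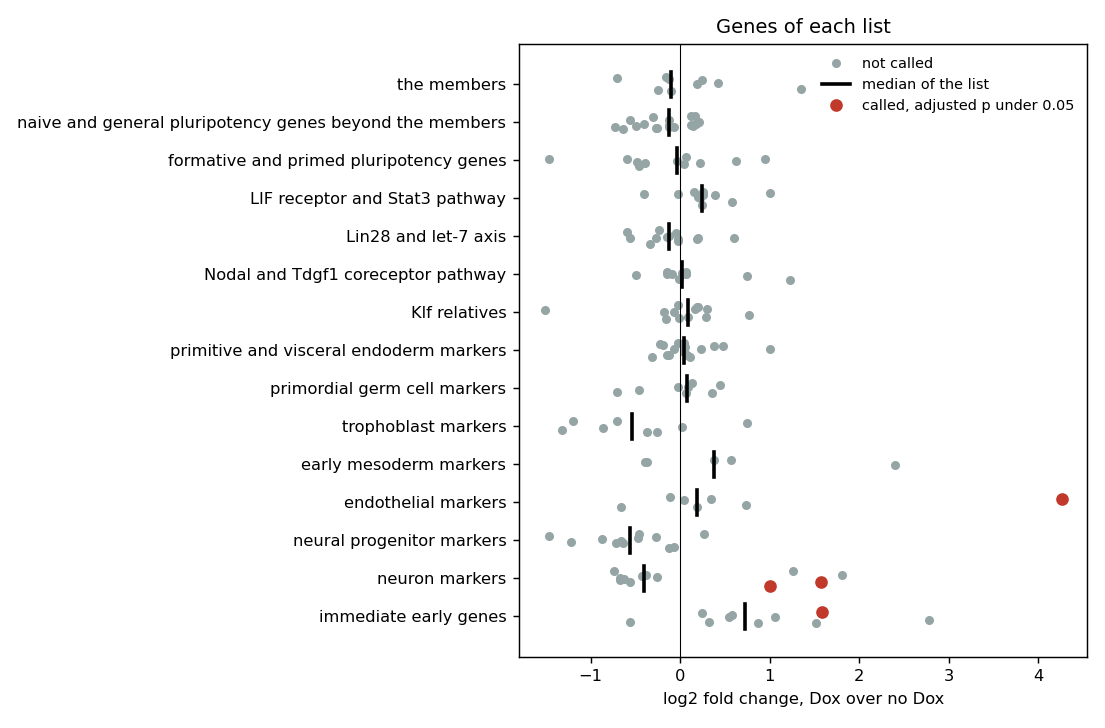
Log2 fold change with Dox over no Dox of the tested members and of the tested genes of 14 lists, 1 point a gene, with called genes in red and each list's median as a black bar. Points of the members and of the pluripotency lists lie on both sides of 0, and the called points belong to the endothelial, neuron and immediate early lists.

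Markers of other cell types that use some of the members were read beside them. Of 16 primitive and visceral endoderm markers, all tested, none was called by edgeR or DESeq2 or at an unadjusted p under 0.05, and the median was 0.04. The list summed to 42420 and 48590 CPM with Dox and 43420 and 44340 CPM without Dox. Col4a1, a basement membrane collagen, alone had 22280 and 24700 CPM with Dox and 23460 and 22240 CPM without Dox. The endoderm factor Gata4, named after its value was seen, had 553 and 644 CPM with Dox and 560 and 591 CPM without Dox. Per kb of exon Col4a1 averaged 3503 and Gata4 174 CPM per kb, above all 10 members, and whether Lin28a or Klf4 came from the same cells was not tested.

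Of 9 primordial germ cell markers 8 were tested, with 0 called by edgeR or DESeq2, 0 higher and 1 lower at an unadjusted p under 0.05, and a median of 0.08. Kit, a receptor of many cell types, had 332 and 402 CPM with Dox and 315 and 386 CPM without Dox and made up most of the list's sum of 346 and 422 CPM with Dox and 332 and 405 CPM without Dox. The germ cell helicase Ddx4 had 2.51 and 4.63 CPM with Dox and 3.38 and 3.39 CPM without Dox. Dppa3, also on this list, was at 0.

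The endothelial list, relevant to Klf2 and Klf4, summed to 250 and 200 CPM with Dox and 400 and 237 CPM without Dox, with 7 of 10 markers tested and a median of 0.19. At an unadjusted p under 0.05 edgeR found 2 higher and 0 lower, against 6.25% and 4.01% of all genes tested. EdgeR called 1 higher, the ETS factor Erg, with 1.90 and 2.67 CPM with Dox and 0.0734 and 0.163 CPM without Dox (log2 fold change 4.26, SE 0.50, adjusted p = 0.0197). Erg rests on 2 and 4 counts without Dox. It missed the threshold with the largest part as the count (3.16, adjusted p = 0.0638) and with the last exon left out (5.95, adjusted p = 0.0506), with the same direction in both, and a minimum mean of 5 CPM left it untested. Cdh5, the endothelial cadherin, had 12.04 and 24.3 CPM with Dox and 10.9 and 24.5 CPM without Dox. Like Klf2, it was higher in both replicate 2 libraries. The VEGF receptor Flt1, which made up most of the list's sum, ran the other way, with 212 and 138 CPM with Dox and 368 and 185 CPM without Dox. The part of endothelial cells in the Klf2 and Klf4 values was not tested.

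Immediate early genes, which Klf2 and Klf4 can accompany in stimulated or dissociated cells, summed to 312 and 369 CPM with Dox and 189 and 173 CPM without Dox. All 10 were tested with a median of 0.73. At an unadjusted p under 0.05, 6 were higher by edgeR and 0 lower, against 6.25% and 4.01% of all genes tested. EdgeR called 1 higher, Jun, with 155 and 150 CPM with Dox and 53.1 and 48.8 CPM without Dox (log2 fold change 1.59, SE 0.11, adjusted p = 0.00352), and DESeq2 called 4 higher. Jun was not tested with the last exon left out, and no other gene of the list was called then. The list's sums did not overlap between the groups, and the values of Klf2 and of Klf4 overlapped. Of all single genes tested, 38.8% had groups that did not overlap. The part of immediate early induction in the Klf2 and Klf4 values was not tested.

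Trophoblast and early mesoderm markers were read as signs of other early lineages. Of 11 trophoblast markers 8 were tested, with 0 called by edgeR or DESeq2, 0 higher and 4 lower at an unadjusted p under 0.05, a median of -0.54, and a list sum of 90.9 and 107 CPM with Dox and 119 and 116 CPM without Dox. Over all genes tested, 4.01% were lower by edgeR at an unadjusted p under 0.05. Krt18, a keratin of simple epithelia, had 56.2 and 66.1 CPM with Dox and 75.7 and 70.5 CPM without Dox. It was not among the 4 (unadjusted p = 0.0916 by edgeR). Krt7, which was among them, had 3.40 and 2.80 CPM with Dox and 5.58 and 5.67 CPM without Dox. Krt8 had 24.1 and 31.1 CPM with Dox and 25.9 and 28.6 CPM without Dox (log2 fold change 0.02). Of 10 mesoderm markers 5 were tested, with 0 called by edgeR or DESeq2, 1 higher and 0 lower at an unadjusted p under 0.05, a median of 0.38, and a list sum of 11.2 and 10.1 CPM with Dox and 8.07 and 9.55 CPM without Dox.

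Neural markers were the other large group counted beside the scarce stem cell factors. All 12 neural progenitor markers were tested, with 0 called by edgeR, 0 higher and 3 lower by DESeq2, 0 higher and 5 lower at an unadjusted p under 0.05, and a median of -0.56. Their sum was 1528 and 1163 CPM with Dox and 1872 and 1521 CPM without Dox. Vim, an intermediate filament gene, held the largest part of it. Alone it had 751 and 633 CPM with Dox and 773 and 682 CPM without Dox. Over all genes tested, 0.74% were lower by DESeq2 and 4.01% by edgeR at an unadjusted p under 0.05. Sox2 is on this list as well as on the pluripotency list. Of 12 neuron markers, all tested, edgeR called 2 higher and 0 lower and DESeq2 4 higher and 1 lower, with 4 higher and 3 lower at an unadjusted p under 0.05, a median of -0.40 and a sum of 1594 and 1308 CPM with Dox against 860 and 661 CPM without Dox. The called genes were the neurofilament Nefm (log2 fold change 1.57, SE 0.14, adjusted p = 0.00757) and the growth cone protein Gap43 (1.003, SE 0.13, adjusted p = 0.0268). With the last exon left out Nefm was called and Gap43 was not (1.06, adjusted p = 0.111). The neurofilament Nefl, with 900 and 659 CPM with Dox and 277 and 166 CPM without Dox, held most of the difference between the sums and missed the threshold (1.81, SE 0.28, adjusted p = 0.0526). Of the 12 markers 8 were below 0, among them the microtubule protein Dcx, with 86.1 and 57.9 CPM with Dox and 113 and 73.8 CPM without Dox (-0.38, SE 0.26, adjusted p = 0.754).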

How the data were processed

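The authors deposited whole-number counts, 1 table per library, for 208825 numbered parts of RefSeq gene units and 4 rows that name no gene, which were left out (13.6% to 15.8% of counts lay outside genes and 0.411% to 0.521% were ambiguous). The submitters' processing notes name TopHat and build mm9. For the counter, its annotation release and strand use, the entry is: not given in the sources used here. A read that spans parts may be counted in each. Groups and replicate numbers came from the sample titles, and the design text calls the replicates biological duplicates.

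Parts were summed to genes and named from the RefSeq table of GRCm38.p6 and GENCODE M21 (97.1% of 27601 identifiers matched). Exon lengths and exon order came from the same later build. On the minus strand, part numbers followed genomic order: exon length and count correlated with a median r of 0.751 across 3761 genes, against -0.235 in transcript order. The test was edgeR 4.0.16 under R 4.3.3 (quasi-likelihood, TMM, robust, filterByExpr, Benjamini-Hochberg at 0.05, no replicate block). The SE is the log2 fold change over the root of F, and 95% intervals use the t distribution of that fit. Libraries of 1 group differed beyond sampling noise, with a chi-square of 28.9 (Dox) and 31.7 (no Dox) per degree of freedom. On simulated counts for this comparison (14159 genes), the test found 71 of 100 genes moved 2-fold and 97 of 100 moved 4-fold, and made 14 false calls. The moved genes were drawn from those with a mean above 1 CPM. Pou5f1, Nanog and Klf2, at 0.622, 0.515 and 0.932 CPM, lay below that, so these rates do not cover them. The simulated libraries were drawn without any feature shared by replicate number. Counting intervals and the floor of 3 counts cover counting error only.

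Alternatives were DESeq2 1.42.0, other scalings and filters, the largest part as the count, a replicate block and each library left out. Leaving out the last exon was added after seeing the data. Members and lists were chosen with earlier results of these data known. Genes named are the members, Isl1 and Lhx3, and from each list called genes (up to 4) and genes among the 3 of largest mean CPM; others are said to be chosen after their values were seen.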

Additional observations from a re-analysis of the deposited data

How the results depend on the processing

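A replicate block in edgeR gave 1046 genes higher and 864 lower, and 1 member higher, Esrrb (log2 fold change 1.30, adjusted p = 0.00491), against 7.33% of genes higher in that fit; 19 genes of the 14 lists were higher and 30 lower. Deviations of same-numbered libraries correlated across genes (r = 0.606), yet no label says that a number marks a shared batch, and there are 2 pairs, so the block was not taken as the design. Over all genes 175 were higher and 8 lower in the reported test, against 398 and 113 with DESeq2, 295 and 46 with no filter, 104 and 4 with a mean of 5 CPM, 16 lower with library totals, 14 lower with the largest part, and 76 and 0 without the last exon, where fewer genes were tested. With 1 library left out, where a lone library is assumed to vary like the pair, the counts ran from 275 to 282 higher and from 22 to 120 lower. Members called higher then ran from 0 to 1, the 1 being Esrrb at 1.69 without Dox replicate 1 (background 1.95%), and its range was 0.90 to 1.69. Genes of the 14 lists called were 4 higher and 0 lower, against 11 and 6 with DESeq2, 2 lower with no filter, 1 lower with the largest part and 1 higher without the last exon, and ran from 5 to 10 higher and 0 to 9 lower with a library left out. Over 99 alternative values of the 9 tested members, 89 kept direction and call and 8 turned sign. With the largest part, Tfcp2l1 was 0.0523 and Utf1 0.0029. With a library left out, Pou5f1 ran from -0.50 to 0.69, Zfp42 from -0.27 to 0.58, Klf2 from -0.24 to 0.96 and Tfcp2l1 from -0.39 to 0.28. The causes were not tested. Pou5f1, Nanog, Klf2, Utf1 and Tdgf1 had at most 79 counts in any library.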
